A study of Rattus norvegicus with 32 samples.

Results

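Adiponectin, leptin, resistin and adipsin, which fat cells secrete, were taken as a group with genes that store and release fat: Plin1, Plin4, Cidec, Pparg, Lipe and Lpl. Every probe set whose symbol in the platform annotation was 1 of these 10 genes was used if its median intensity reached 10 over 31 arrays. That gave 11 probe sets of 9 genes among 22943 probe sets tested, out of 31042 on the array once controls were left out. No probe set carried the symbol Retn, so resistin was not analysed here. Plin1 and Lipe had a pair of probe sets each, and the other genes had 1.

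RNA came from the mammary glands of 32 untreated adult virgin female Sprague Dawley rats on standard chow, each measured on 1 Affymetrix rat genome array. The rats were killed 1 at a time, from morning to evening, over the 4 days of the estrous cycle, so no time point had a replicate and no night was sampled. The study discarded the array of 40 h as apparently corrupted. Of the 31 rats used, 8 were of day 1, killed from 7 to 17.6 h, 8 of day 2, the day of estrus (31.6 to 43 h), 8 of day 3 (57 to 67.1 h) and 7 of day 4 (79.3 to 88.1 h). Their array medians lay between 49.9 and 54.7. The hours were read as hours after midnight of the first day, and the clock hour is the hour within the day. For description, the rats were divided at noon into 14 killed from 7 to 11.9 h and 17 killed from 13 to 19.1 h. A gland is a mixture of epithelium, fat, vessels and connective tissue, and a lower value of a fat cell gene can come from fewer fat cells or from less RNA per cell, which cannot be told apart in such samples. All 7 adipocyte markers, all 10 luminal epithelial markers and all 6 basal markers listed for the check passed the filter. The summed intensity of the adipocyte markers (Fabp4, Cd36, Pnpla2, Cebpa, Slc2a4, Aqp7 and Gpd1) ran from 24863 to 44141 over the rats. Of 5 brown fat markers, Cidea (median 451) and Cox8b (66.4) passed the filter, and Ucp1, Dio2 and Elovl3 did not. Passing the filter says only that a transcript was measured, not which cells it came from.

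White fat cells keep triglyceride in a single large droplet. Proteins of the perilipin family coat the droplet, CIDEC helps droplets fuse, and the nuclear receptor PPAR gamma drives the genes of the mature fat cell. Lipoprotein lipase frees fatty acids from circulating lipoproteins for uptake, while hormone-sensitive lipase works inside the cell to release them again. In the mammary gland this fat surrounds the ducts, and adiponectin, leptin and adipsin enter the blood from it as from other fat depots.

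Plin4, Pparg and Cidec were higher in rats killed later in the day, at 2.34-fold, 1.89-fold and 1.67-fold per 10 h. The other 6 genes did not pass the test of a daily change. These included Adipoq, Cfd, Plin1 and Lpl, whose fitted change over 10 h lay between -0.06 and 0.06 log2 units for the probe set that stood for each gene. The slopes came from a limma fit of log2 intensity on clock hour, with a level of its own for each cycle day. For each probe set all 31 rats shared 1 estimate of the spread, on 26 residual degrees of freedom. The SE, intervals and p-values used that estimate after limma had moderated it across all probe sets tested. Of the 11 probe sets, 3 were higher later at an adjusted p under 0.05, against 1.08% of all probe sets tested, and 0 were lower, against 0.68%. At an unadjusted p under 0.05 there were 5 of the 11, with 4 higher and 1 lower later, against 12.1% of all probe sets in either direction.

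Plin4, a perilipin that coats droplets in fat cells, had the steepest slope of the 11 probe sets. Before noon its intensity ran from 809 to 1509 with a median of 1098, and from noon on it ran from 863 to 3894 with a median of 2007. All but 3 of the 17 later rats lay above the highest of the 14 earlier rats. These 3 were the rats of 61.3 h, 62.5 h and 85.3 h, at 1476, 972 and 863, all killed between 13.3 and 14.5 h of the clock. The slope was 1.23 log2 units per 10 h (SE 0.22, 95% interval 0.77 to 1.69, limma adjusted p = 0.00145). Fitted within each day it was 1.28, 0.85, 1.46 and 1.52 on days 1 to 4.

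Pparg ran from 286 to 878 before noon, with a median of 665, and from 618 to 1640 from noon on, with a median of 1063. The groups overlapped, with 12 of the 17 later rats above every earlier rat and 6 of the 14 earlier rats below every later one. Its slope was 0.92 log2 units per 10 h (SE 0.24, 95% interval 0.42 to 1.41, limma adjusted p = 0.0435), and it lay between 0.83 and 1.04 within each of the 4 days. This call was near the threshold: with 1 rat left out at a time the adjusted p ran from 0.0147 to 0.107, and it missed the threshold in 16 of the 31 runs, by most without the rat of 43 h. It also missed with any 1 of the 4 days left out, at an adjusted p from 0.110 to 0.202.

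Cidec ran from 2145 to 4051 before noon, with a median of 3262, and from 2194 to 8775 from noon on, with a median of 4067. Of the later rats, 9 of 17 were above every earlier rat, and 15 of 17 were above the earlier median. The slope was 0.74 log2 units per 10 h (SE 0.18, 95% interval 0.38 to 1.10, limma adjusted p = 0.0211). It was 0.74, 0.79 and 1.01 on days 1 to 3 and 0.22 on day 4. Without the rat of 43 h its adjusted p was 0.0528, and it was 0.156 without all rats of day 1 and 0.271 without those of day 2.

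**Figure D1:**
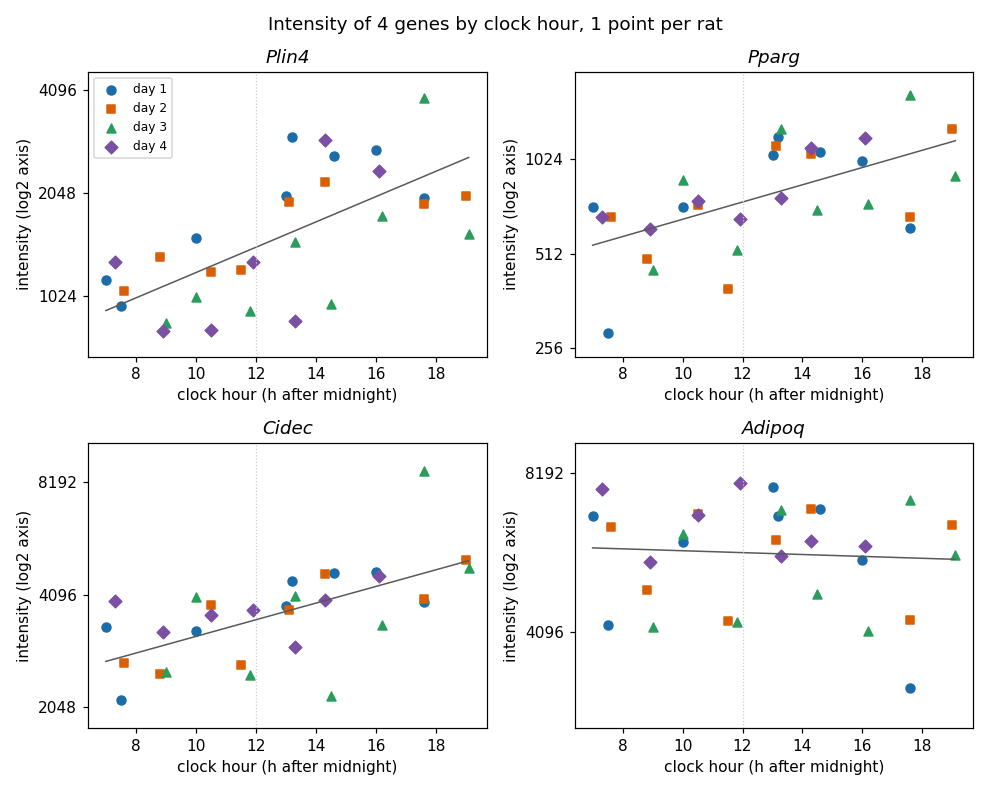
Intensity of Plin4, Pparg, Cidec and Adipoq (log2 axis) against the clock hour in h after midnight, with 1 point per rat, colour and shape by cycle day, a dotted line at noon and a solid line of the fitted slope drawn through the mean of the 31 rats. Plin4 climbed from a median of 1098 before noon to 2007 from noon on, while Adipoq had medians of 6174 and 6078 in the same groups.

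The remaining droplet and lipase genes did not pass. Plin1, the perilipin that guards the droplet against lipases, ran from 1455 to 2476 before noon and from 1258 to 2715 from noon on in its brighter probe set, 1392583_at, so the earlier rats lay within the range of the later ones. The slope of that probe set was 0.06 log2 units per 10 h (95% interval -0.28 to 0.40), and that of 1369449_at, at a median intensity of 121, was -0.19 (-0.45 to 0.08). Lipe, which encodes hormone-sensitive lipase, ran from 675 to 1406 before noon and from 683 to 2031 from noon on in probe set 1387132_at. Its slope was 0.38 (SE 0.17, 95% interval 0.03 to 0.72, limma adjusted p = 0.354) and was positive on each of the 4 days, between 0.32 and 0.43. The second Lipe probe set, 1382465_at, pointed the other way with a slope of -0.37 (limma adjusted p = 0.161), but it was dim: its median was 22.03, and all 8 rats of day 3 lay between 21.9 and 22.6. Lpl, which encodes lipoprotein lipase, ran from 10802 to 17628 before noon and from 8219 to 19272 from noon on, with a slope of 0.04 (95% interval -0.21 to 0.28).

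Of the secreted proteins, none passed the test of a daily change. Adipoq, the gene of adiponectin, ran from 4188 to 7844 before noon and from 3206 to 7690 from noon on, and its slope was -0.06 log2 units per 10 h (95% interval -0.40 to 0.29). No later rat exceeded the highest earlier one. Cfd, which encodes adipsin, the protease complement factor D, ran from 17710 to 22992 before noon and from 16766 to 24167 from noon on. Its slope of -0.01 had the narrowest interval of the 11 probe sets, -0.16 to 0.15. Lep, the gene of leptin, ran from 43.4 to 205 before noon and from 48.7 to 467 from noon on, and its slope of 0.45 came with a wide interval, from -0.36 to 1.27 (limma adjusted p = 0.692). That slope was 0.23 without the rat of 65.6 h and 0.11 without all rats of day 3. The bright values of Cfd and Lpl could lie near the upper end of the scanner's range, which could not be judged from normalized intensities.

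Markers of the cell types in the gland were read beside these slopes. The mean of the 7 adipocyte markers had a slope of 0.03 log2 units per 10 h, and 0 of the 7 passed in either direction. With that mean as a covariate the slopes of Plin4, Pparg and Cidec were 1.20, 0.88 and 0.71, and with the means of the luminal and skeletal muscle markers as covariates they were 1.34, 0.97 and 0.76. Summed luminal marker intensity ran from 14934 to 26310 before noon and from 15493 to 26478 from noon on. Skeletal muscle differed widely between rats, from 2240 to 36634 before noon and from 1644 to 38690 from noon on, with a slope of -1.05 for the list mean and 0 of 7 markers past the threshold. Of the other lists, 1 of 5 fibroblast markers was lower later, and 0 of 5 lymphocyte, 0 of 4 endothelial, 0 of 6 macrophage and 0 of 6 basal markers passed the slope test.

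To set the genes against another fat cell transcript of the same rat, the log2 ratio to Adipoq was fitted in the same way, a comparison added after the values had been seen. The ratio rose by 1.29 log2 units per 10 h for Plin4 (95% interval 0.85 to 1.72, limma adjusted p = 3.86e-04), by 0.98 for Pparg (0.65 to 1.30, limma adjusted p = 3.42e-04) and by 0.80 for Cidec (0.48 to 1.12, limma adjusted p = 0.00379). These were the 3 of the 10 other probe sets to pass, and 0.353% of all probe sets had a ratio to Adipoq that was higher later. The ratio of Lipe in its brighter probe set had a slope of 0.44 (0.10 to 0.77, limma adjusted p = 0.602), that of Lep 0.51 (-0.07 to 1.09), and those of Lpl, Cfd and the brighter Plin1 probe set lay between 0.05 and 0.12.

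**Figure D2:**
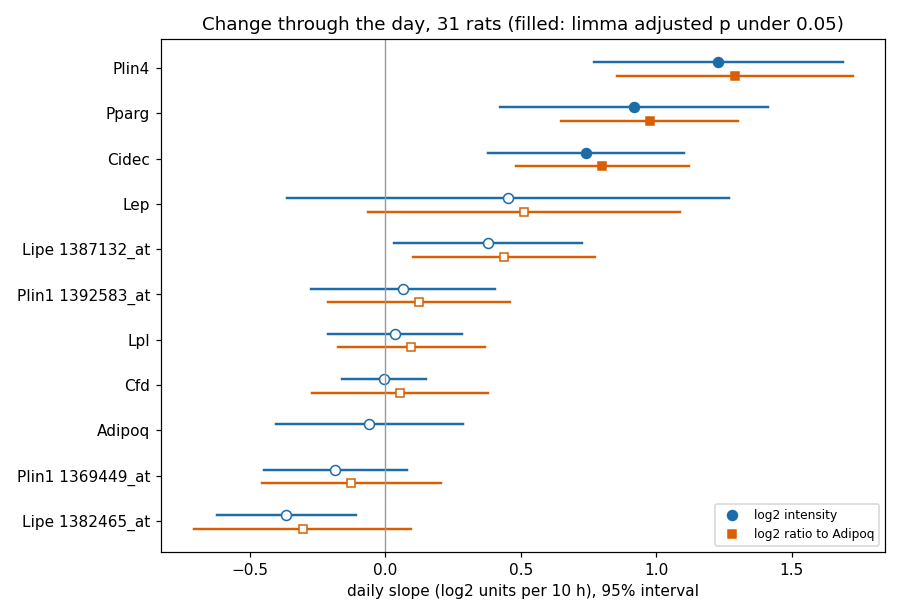
Daily slope in log2 units per 10 h with its 95% interval for each probe set, as log2 intensity (circles) and as log2 ratio to Adipoq (squares), over 31 rats, filled where the limma adjusted p was under 0.05. Only Plin4, Pparg and Cidec have filled symbols, on both scales, with Plin4 at 1.23 and 1.29.

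The stretches just before the start sites of these 3 genes are shown because all 3 were higher later in the day. RefSeq start sites on GRCr8 gave 13 windows for 8 of the 10 genes, while Lipe and Lpl had none in the table used. Plin4 lies on chromosome 9 (1016334 to 1025249), Cidec on chromosome 4 (148124924 to 148137806) and Pparg on chromosome 4 (150095743 to 150221104). The 250 bases before the outermost Plin4 start are chr9:1025250-1025499 on the minus strand. Those of the Cidec start in the table are chr4:148137116-148137365 on the minus strand. Those of the 2 Pparg starts in the table are chr4:150096808-150097057 and chr4:150154522-150154771 on the plus strand. The spans of Cidec and Pparg reach further upstream than these stretches, and the table held no window at those outer ends. All are written 5′ to 3′, and no letter is in capitals because none of the motifs searched was found.
Plin4: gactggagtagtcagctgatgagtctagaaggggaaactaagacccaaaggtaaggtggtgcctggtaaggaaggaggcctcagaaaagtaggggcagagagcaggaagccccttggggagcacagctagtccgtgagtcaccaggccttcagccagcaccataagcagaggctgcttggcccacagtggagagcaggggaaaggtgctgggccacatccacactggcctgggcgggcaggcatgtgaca
Cidec: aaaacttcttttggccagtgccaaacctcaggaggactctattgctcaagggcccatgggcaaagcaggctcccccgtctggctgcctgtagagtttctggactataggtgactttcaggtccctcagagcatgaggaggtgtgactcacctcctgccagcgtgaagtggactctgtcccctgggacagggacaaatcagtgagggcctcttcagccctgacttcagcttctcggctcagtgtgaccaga
Pparg, upstream start: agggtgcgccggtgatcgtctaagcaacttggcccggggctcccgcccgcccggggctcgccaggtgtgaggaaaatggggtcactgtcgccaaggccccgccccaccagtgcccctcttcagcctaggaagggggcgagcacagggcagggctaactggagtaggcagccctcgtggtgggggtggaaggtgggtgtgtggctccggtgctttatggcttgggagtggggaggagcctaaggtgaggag
Pparg, downstream start: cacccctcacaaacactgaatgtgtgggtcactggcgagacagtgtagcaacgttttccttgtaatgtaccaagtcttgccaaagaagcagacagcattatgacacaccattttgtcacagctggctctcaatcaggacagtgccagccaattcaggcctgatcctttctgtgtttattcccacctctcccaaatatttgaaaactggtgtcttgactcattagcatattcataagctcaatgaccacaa
The windows differed in composition, with 58.8% G and C in the Plin4 stretch, 56% in that of Cidec, 67.2% before the upstream Pparg start and 44.8% before the downstream one. In windows of 300 bases, 250 before to 50 after a start, the E-box CACGTG was found in 6.42% of the 33469 windows of the table, the D-box TTACGTAA or TTATGTAA in 1.01%, and a PPAR element, which is 2 copies of AGGTCA set 1 base apart with at most 2 mismatches, in 3.77%, on either strand. Each was found in 0 of the 13 windows of these 8 genes, which says only that these letters were not in these windows. Some of the Plin4 windows overlapped almost entirely, so the 13 were not all distinct stretches. The probe sets do not show which Pparg start was used.

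Between the cycle days no change passed the test. Of the 11 probe sets, 0 passed the F test over the 4 days at an adjusted p under 0.05 in limma, against 0.501% of all probe sets tested. At an unadjusted p under 0.05 there were 3, Plin4, Lipe in probe set 1387132_at, and Lpl, while 10.9% of all probe sets reached that level. The daily slope differed between days in 0 of the 11 in limma, against 0.00436% of all probe sets, and at an unadjusted p under 0.05 in 0 of the 11 as well, against 3.66%. With 7 or 8 rats a day these slopes were loosely fixed: those of Lep ran from -0.44 on day 4 to 1.504 on day 3. Beside this, 0 of 7 adipocyte markers differed between the days, and 1 of 10 luminal, 1 of 6 basal and 1 of 6 macrophage markers did.

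Plin4 had a median of 1994 on day 1 (955 to 2982) and of 1618 on day 2 (1056 to 2206). Its median was 1247 on day 3 (852 to 3894) and 1289 on day 4 (809 to 2929). The days overlapped, and the highest rat of all, of 65.6 h, was on day 3. At equal clock hour, day 3 was 0.63 log2 units below day 1 (SE 0.22, 95% interval 0.19 to 1.08 below, limma adjusted p = 0.173). Without the rat of 65.6 h this difference was -0.77 and its adjusted p was 0.0426.

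Lipe had medians of 1044, 1149, 871 and 1370 on days 1 to 4. The 7 rats of day 4 lay between 1060 and 2031, and 5 of the 8 rats of day 3 lay below the lowest of them. Day 4 was 0.56 log2 units above day 3 (SE 0.17, 95% interval 0.20 to 0.91, limma adjusted p = 0.854). The second Lipe probe set differed by -0.20 between the same days (95% interval -0.46 to 0.06).

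Lpl had medians of 13948, 13225, 15279 and 16242 on days 1 to 4. The rats of day 2 (10802 to 14782) overlapped with those of day 4 (13302 to 17628), and day 4 was 0.30 log2 units above day 2 (SE 0.12, 95% interval 0.05 to 0.54, limma adjusted p = 0.611). Cfd had its lowest median on day 3, at 19560 (16766 to 24167), and its highest on day 2, at 22533 (19017 to 24002), a difference of -0.16 (95% interval -0.30 to -0.01, limma adjusted p = 0.373).

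For the other genes the largest difference between any 2 days had an interval that held 0. It was 0.26 log2 units for Adipoq, between days 4 and 3 (-0.09 to 0.61), -0.20 for Plin1 between days 3 and 1 (-0.53 to 0.13), 0.17 for Cidec between days 4 and 3 (-0.20 to 0.54) and 0.19 for Pparg between days 4 and 2 (-0.30 to 0.68). For Lep it was -0.48 between days 4 and 1, with an interval from -1.29 to 0.33, wide enough to hold a fall of 1 log2 unit. Without the rat of 86.3 h it was -0.27.

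**Figure D3:**
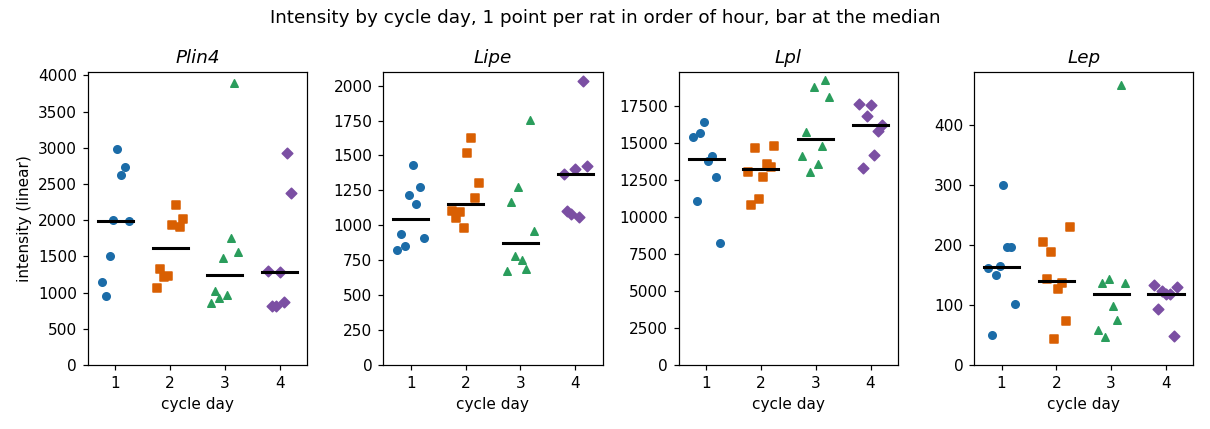
Linear intensity of Plin4, Lipe (probe set 1387132_at), Lpl and Lep on the 4 days of the cycle, with 1 point per rat in order of hour within the day and a bar at the median of the day. All days overlap in all 4 genes, and the rat of 65.6 h stands at the top of day 3 in each.

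The spline method that the study devised for data without replicates asks which share of a probe set's variance lies in a smooth curve over the whole cycle. That share was 58.2% for Plin4, 43.7% for Lpl, 42.5% for Cidec and 32.9% for Pparg. The median was 32.9% over the 11 probe sets and 24.7% over all probe sets tested. At the study's false discovery rate of 0.25, the method called 1 of the 11, Plin4 (adjusted p = 0.0581 from the study's permutation vector), against 8.04% of all probe sets.

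The genes differed widely in how much rats of like hour and day differed from each other. The residual SD of the fit, to which rats and measurement error both contribute, had a median of 0.34 log2 units over the 11 probe sets and 0.23 over all probe sets tested, and 10 of the 11 were above the latter. With the mean of the 7 adipocyte markers as a covariate these medians were 0.20 and 0.22. The residual SD then went from 0.34 to 0.17 for Adipoq, from 0.48 to 0.24 for Pparg, from 0.35 to 0.18 for Cidec, from 0.34 to 0.20 for the brighter Lipe probe set and from 0.81 to 0.53 for Lep, while that of Plin4 went from 0.45 to 0.36. Lep had the largest, 0.81, with 98.5% of all probe sets below it, and its intensity spanned 10.8-fold, from 43.4 in the rat of 35.5 h to 467 in the rat of 65.6 h. Cfd had the smallest, 0.13, with 9.31% of all probe sets below it, and spanned 1.44-fold. Between them lay Pparg at 0.48, Plin4 at 0.45, Cidec at 0.35, Adipoq and Lipe at 0.34, Plin1 at 0.33 and Lpl at 0.23. The spans of these genes were 5.74-fold for Pparg, 4.81-fold for Plin4, 4.09-fold for Cidec, 2.45-fold for Adipoq, 3.01-fold for Lipe, 2.16-fold for Plin1 and 2.34-fold for Lpl.

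Single rats stood out across genes. The rat of 65.6 h had the highest value of 6 of the 9 genes, with Plin4 at 3894, Cidec at 8775, Pparg at 1640, Lep at 467, Lpl at 19272 and Cfd at 24167, and all 9 of its values were above the gene's median. On average over the genes it lay 0.85 log2 units above the gene's mean log2 intensity. The rat of 7.5 h lay 0.62 below that mean on average and had the lowest Pparg (286) and Cidec (2145). The rat of 17.6 h had the lowest Adipoq (3206), Lpl (8219) and Plin1 (1258), although Plin4 in that rat was 1981, near the median of the later rats. The slopes of the called genes stayed positive without any of these rats: the slope of Plin4 was 1.10 and that of Cidec 0.62 without the rat of 65.6 h, and the slope of Pparg was 0.75 without that of 7.5 h. The array of 40 h, which took no part in the fits, lay within the range of the 31 rats in all 11 probe sets, with Plin4 at 3032 and Cidec at 5725.

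**Figure D4:**
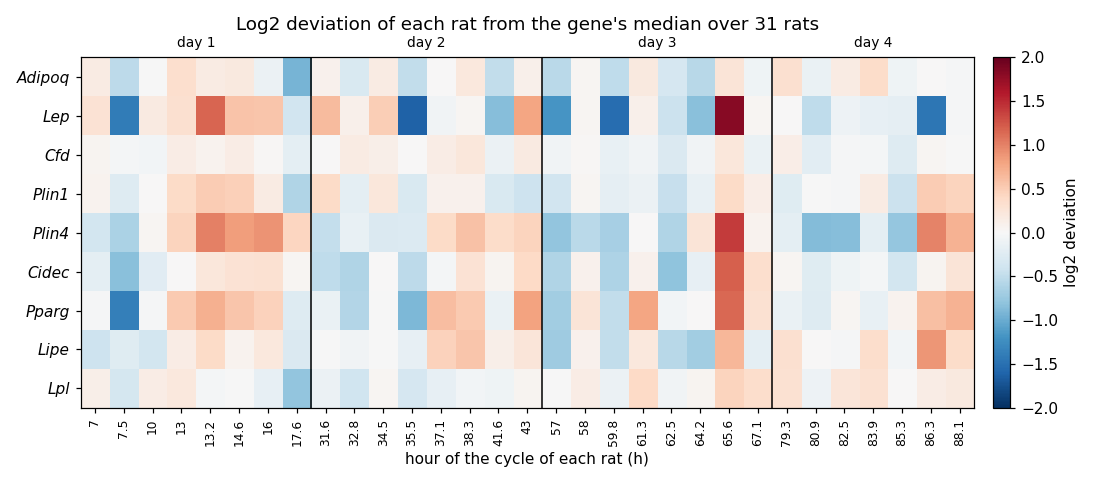
Log2 deviation of each of the 31 rats from the gene's median, in 9 genes by hour of the cycle in h, red above and blue below, with black lines between the days. The column of 65.6 h is red in all 9 genes. Those of 7.5, 35.5, 57, 59.8, 62.5 and 80.9 h have no gene above its median. Lep has the strongest colours and Cfd the palest.

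Rats that were high in 1 of these genes for their hour and day tended to be high in the others. Over the 31 rats, whose arrays were normalized together, the residuals of all 36 pairs of the 9 genes had a Pearson r above 0, and 30 pairs were above 0.5. The median was 0.65. No such count over pairs of other genes is given here, so these counts cannot be judged against a background. The highest was 0.88, between Adipoq and Lpl (0.83 without the 2 rats farthest from the median), and the lowest was 0.38, between Lep and Plin4 (0.20 without such rats). Adipoq was also near to Pparg (0.85), whereas its r with Plin4 was 0.47. Plin4 had its highest r with Lipe and Cfd, at 0.78 each. The mean residual of the 9 genes had an r of 0.94 with that of the 7 adipocyte markers, 0.70 with the endothelial markers, 0.55 with macrophage, 0.46 with fibroblast, 0.28 with skeletal muscle, 0.19 with basal, -0.25 with luminal epithelium and -0.26 with lymphocytes. These are descriptions, and the part of tissue composition in them was not tested.

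Among 11788 genes outside the list, each stood for by its brightest probe set, the 5 with the residual profile most like Adipoq over the 31 rats were Plaat3, a phospholipase and acyltransferase (r = 0.95), Sdhaf2, an assembly factor of succinate dehydrogenase (0.92), Tshr, the thyrotropin receptor (0.92), Iqgap2, a scaffold protein (0.92), and Cd151, a tetraspanin (0.91). Nearest to the mean of the 9 genes were Mst1 (0.94), Trarg1, a regulator of glucose transporter traffic (0.94), Prkar2b, a regulatory subunit of protein kinase A (0.93), Aqp7, a glycerol channel (0.93), and Ehd1, an endocytic recycling protein (0.92). For comparison, 1 in 100 of the genes compared had an r above 0.80 with Adipoq and above 0.82 with the mean.

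**Figure D5:**
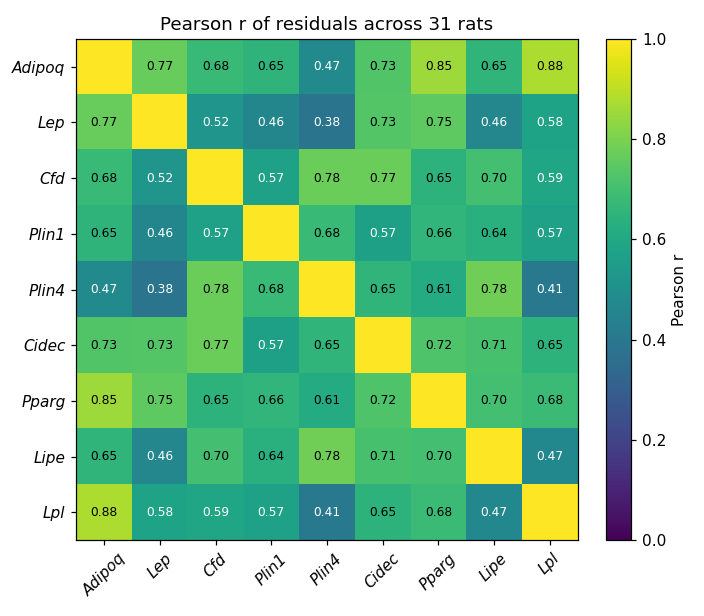
Pearson r between the 9 genes of the residuals from the fit with cycle day and clock hour, across 31 rats, from 0 (dark) to 1 (bright). All 36 pairs are above 0, the highest is Adipoq with Lpl at 0.88 and the lowest Lep with Plin4 at 0.38.

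Other genes of fat uptake, storage, release and their control were read from a list of 56, of which 50 were measured. In this list 3 were higher later in the day, 1 was lower and 1 differed between the cycle days, where 1.08%, 0.68% and 0.501% of all probe sets did. The median slope of the 50 was 0.14 log2 units per 10 h, against 0.02 over all probe sets tested. Klf15, a transcription factor of fat cell formation and nutrient metabolism, went from a median of 317 before noon (234 to 496) to 557 from noon on (282 to 741), with a slope of 1.05 (SE 0.16, limma adjusted p = 1.12e-04). Srebf1, a transcription factor of lipid synthesis genes, went from 972 (614 to 1655) to 1307 (757 to 2221), with a slope of 0.77 (SE 0.18, limma adjusted p = 0.0171). Cebpd, an early factor of fat cell formation, was lower later, with medians of 1706 (1259 to 2531) and 1251 (591 to 1697) and a slope of -0.77 (SE 0.20, limma adjusted p = 0.0408). In all 3 the ranges of the earlier and later rats overlapped.

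Nampt, which encodes an enzyme of NAD synthesis that fat cells also secrete, rose through the day with a slope of 0.44 (SE 0.09, limma adjusted p = 0.00350) and also differed between the days (limma adjusted p of the F test = 0.0134). Its medians were 1271, 1230, 1167 and 939 on days 1 to 4. The 7 rats of day 4, at 820 to 1104, lay below all 8 rats of day 1, at 1164 to 1737, a difference of -0.52 log2 units (SE 0.09, limma adjusted p = 0.0210). By role, 0 of 9 genes of lipid uptake, 0 of 7 of triglyceride assembly, 0 of 10 of lipolysis and droplet coats and 0 of 9 of hormone and nutrient sensing passed either test. The median slope was 0.50 in triglyceride assembly and between 0.01 and 0.10 in the other 3 groups. Single genes lay far from these medians without passing. Their slopes ran from -1.23 in lipid uptake (limma adjusted p = 0.116) to 1.02 in triglyceride assembly (limma adjusted p = 0.0556). The steepest slope in lipolysis and droplet coats was 0.95 (limma adjusted p = 0.0747).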

How the data were processed

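Mammary gland RNA of 32 rats was hybridised to an Affymetrix rat genome array, 1 per rat. The deposited values are linear intensities made by the authors with GCRMA, as the submitters' processing notes name it (its version is not given in these sources). It subtracts background by probe sequence and then normalizes between arrays. The values ran from 2.22 to 37317. The labels describe glands kept in RNAlater and a column extraction, the paper flash-frozen glands and TriZol, and which was used was not settled. No scan or slide batch was known. The number of arrays limits the precision. The limma p-values set a change against the residual spread between single rats. That spread also holds measurement error and any departure from a straight daily line.

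Symbols came from the platform annotation (20826 probe sets with 1 symbol, 436 with several, 9780 with none), and 20764 matched the GRCr8 gene table by Entrez identifier. The 57 control probe sets and those with a median under 10 were left out, which left 22943. Log2 intensities of 31 arrays were fitted with limma 3.58.1 in R 4.3.3, with cycle day as a factor and clock hour as a slope, and Benjamini-Hochberg adjustment over all probe sets at 0.05. The spline method used order 2, 8 basis functions, the study's permutation vector and a rate of 0.25. A gene with several probe sets was represented by the brightest. Members, lists and tests were chosen with earlier results of these data known. Named genes were all members, the pathway genes that passed either test, and the 5 most alike to Adipoq and to the members' mean.

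The fits were first tested on simulated data with known changes. The daily slope test recovered 64% of changes of 0.5 log2 units and 91% of changes of 1. The F test over days recovered 63% and 94%, and 7.07% of its calls were false. The test of slopes that differed between days recovered 2% and 19%, so its 0 calls say little about differences of that size. All these rates are for changes planted among 22943 simulated probe sets. The median residual SD was 0.34 log2 units over the members' probe sets and 0.23 over all probe sets tested. No rate is given here for probe sets as variable as the members', so members that were not called may still have changed by these amounts. Alternatives covered the filter, the 40 h array, normalization, a pseudocount of 16, variance models, marker covariates, terms of the fit, and each rat and day left out. Promoter windows are RefSeq's on GRCr8, and the array values carry no genome build. Figures were drawn with matplotlib 3.10.9.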

Additional observations from a re-analysis of the deposited data

Results flagged for a closer look

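Within a day, a rat was singled out where its gap to the nearest other rat was large against that day's range, both on log2 intensity. The intensities printed below are linear, a scale on which this rule was not applied. Of 44 sets of 7 or 8 rats examined, 3 held such a rat, where chance gives about 1 in 20 independent sets. These sets were not independent, since all probe sets were measured on the same rats. Lep was 48.7 in the rat of 86.3 h, the lowest of day 4, where the next lowest was 93.9 in the rat of 80.9 h. In the rat of 86.3 h Plin4 was 2929 and Lipe 2031, the highest of day 4 for both. Cidec was 2145 in the rat of 7.5 h, the lowest of day 1, with the next at 3273 in the rat of 10 h. Pparg was 286 in that rat of 7.5 h, with the next at 618 in the rat of 17.6 h. Lep was also the lowest of day 1 in the rat of 7.5 h, at 50.3, without passing this limit.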

How the results depend on the processing

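The calls of Plin4, Pparg and Cidec through the day, and 0 calls between the cycle days or for slopes that differed between days, stood with the filter of 10 on all 31 arrays, with all 32 arrays, quantile normalization, a pseudocount of 16, array weights, a robust variance and marker covariates. The 3 calls through the day also stood without the day term, and the 0 calls between days without the clock hour. With no filter on low values Pparg missed the threshold (limma adjusted p = 0.0595), which left 2 probe sets. With a whole day left out, 1 probe set was called without day 1 and 1 without day 2, Plin4 in both, and 2 without day 3 or day 4, Plin4 and Cidec. With 1 rat left out at a time the count ran from 1, without the rat of 43 h, to 3. Plin4 was called in all 31 runs, Cidec in 30 and Pparg in 15. The difference of Plin4 between days 3 and 1 passed with array weights (adjusted p = 0.0402) and with the adipocyte marker mean as a covariate (0.0475). The spline method called 2 of the 11 with quantile normalization, 0 at a rate of 0.05, and from 1 to 3 with 1 rat left out (3 without that of 41.6 h). The cause of these changes was not tested.

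Slopes near 0 changed sign. That of Cfd was 0.043 with quantile normalization, 0.024 with luminal and muscle covariates, 0.053 as a ratio to Adipoq, 0.0081 without day 1 and 0.0032 without day 4, and it ran from -0.042 to 0.032 with 1 rat left out. That of Adipoq was 0.023 without day 1 and ran from -0.14 to 0.084. That of Lpl was -0.042 without day 2 and -0.060 without day 3, and ran from -0.0020 to 0.16. That of Plin1 was -0.049 without day 3 and -0.046 without day 4. With the adipocyte mean as a covariate the difference between days 4 and 3 was -0.077 for Cidec, and that between days 4 and 2 was -0.11 for Pparg. Over all probe sets, the number higher later ran from 75 (without day 2) to 437 (adipocyte covariate) around 247, the number lower from 54 to 235 around 156, the number that differed between days from 21 to 359 around 115, and the spline method's from 387 to 1994 around 1845. With 1 rat left out, the day count ran from 41 to 173 and the spline count from 679 to 2709. The spline method was not run with the 40 h array, since its permutation vector covers the 31 others. No paired analysis was possible because each rat stands alone at its hour. With 1 rat per hour and no night, a peak time could not be placed.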
